A study of Brugia malayi with 68 samples.

Results

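Messenger RNA of untreated adult females of Brugia malayi, a filarial nematode that causes lymphatic filariasis, was set against that of untreated adult males. The comparison took the 12 libraries of the series' 68 that carry the control title and an adult sex. Of these, 6 are female and 6 male, with 3 of each sex from day 1 and 3 from day 7, and a term for day entered every pooled test. The question was how many genes differ between the sexes, by how much, how abundant they are, and which are near silent in the other sex.

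All worms came from Mongolian gerbils infected through the peritoneal cavity with larvae and kept until microfilariae were being produced. The other libraries are from worms of gerbils given albendazole (1 mg/kg), diethylcarbamazine (6 mg/kg) or ivermectin (0.2 mg/kg), and from microfilariae. The untreated groups are labelled with the solvent DMSO while the protocol describes their hosts as untreated. The number of worms behind a library, and whether they came from 1 gerbil or several, is not given in the sources used here. The labels name whole worms of 1 sex, so every value is an average over all tissues, and more cells of a kind cannot be told apart from more RNA per cell.

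Filarial worms have separate sexes. The male is the smaller and carries a single testis, whose sperm are packed with major sperm protein in nematodes at large. The female is filled by paired ovaries and uteri, in which embryos develop into microfilariae that are released alive, so RNA of a gravid female includes RNA of her offspring.

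The table lists 11590 gene identifiers, and 0 of them occur in the reference table of 11688 genes. The files do not pair identifiers with names, so no sperm, yolk or eggshell marker could be looked up and the sexes are taken as labelled. No gene's sequence or position is given for the same reason, and genes are grouped by size of difference and abundance. The file writes each identifier after the word Gene and a colon.

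Total counts ran from 6455701 to 16812365 in the 6 female libraries and from 7311412 to 23132302 in the 6 male libraries. The first principal component held 90.1% of the variance and separated the sexes, with female libraries at 86.8 to 130.4 and male libraries at -121.5 to -105.7. Female day 1 replicate 3 stood apart on the second component, at -67.8 against -28.9 to 29.2 elsewhere. Its TMM factor was 0.721 against 1.05 to 1.16 in the other 5 females, and 20.7% of its counts fell on its 100 most abundant genes, against 12.5% to 14.2%. Female day 7 replicate 2 held more RNA of male-biased genes than the other 5 females, as described below. Where leaving out either library moved a result by much, the value without it is given too.

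Females and males differed in most genes. Of 10394 genes tested, 7438 (71.6%) passed edgeR's quasi-likelihood test at an adjusted p below 0.05. They were split almost evenly, with 3647 (35.1%) higher in females and 3791 (36.5%) higher in males. The median log2 fold change of the called genes was 1.10 for those higher in females and -1.30 for those higher in males. Among all genes tested the median was 0.00 (log2, females over males). Of the 2956 genes not called, 2579 (87.2%) had a 95% interval of the fold change that lay within 2-fold in both directions, and for 12 the interval reached 4-fold.

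The balance was lost as the difference grew, with more male-biased than female-biased genes from 4-fold up to 256-fold. At 2-fold or more 1984 genes were higher in females and 2260 in males. At 4-fold or more there were 971 (9.34% of genes tested) and 1383 (13.3%). At 16-fold or more there were 317 (3.05%) and 772 (7.43%), so male-biased genes outnumbered female-biased ones 2.44 to 1. At 64-fold or more the numbers were 113 and 416. The genes at 16-fold or more made up 8.69% of all genes called higher in females and 20.4% of those called higher in males. The 5th percentile of all log2 fold changes was -5.40 and the 95th was 3.14. The even split of all calls depends on scaling, while the male excess at 16-fold was present under each scaling tried. With total counts alone in place of TMM, which moved the median of all genes to 0.13, females held 3941 calls and males 3093, but 339 and 750 at 16-fold or more.

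The far end of the tail depended on 1 library. With all 12 libraries, 11 genes were at least 512-fold higher in females and 7 at least 512-fold higher in males, and at 1024-fold or more there were 6 and 0. Without female day 7 replicate 2 the numbers were 11 and 103 at 512-fold, and 6 and 55 at 1024-fold. The same turn was seen when folds were taken from mean levels with a floor of 3 counts over the lower group. By that measure 10 genes higher in females and 4 higher in males reached 512-fold with all libraries, and 10 and 97 without that library.

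**Figure D1:**
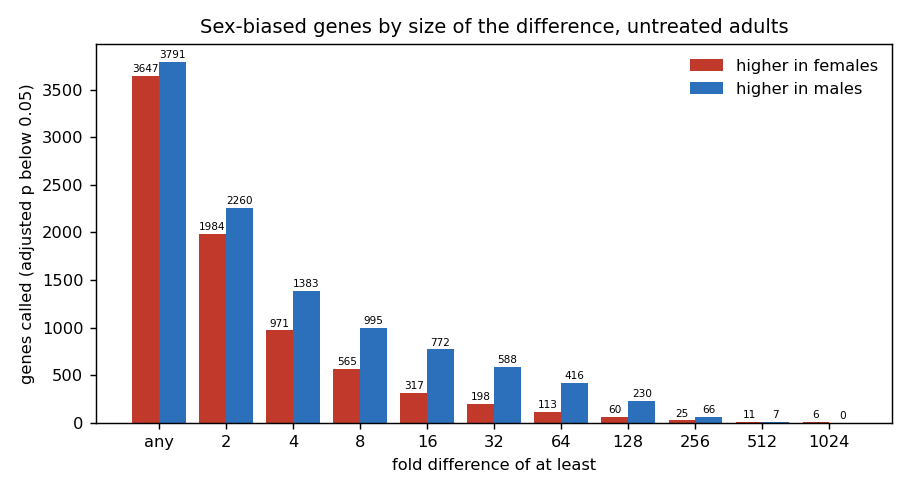
Number of genes called by edgeR (vertical axis) at or beyond each fold difference (horizontal axis), in red for genes higher in females and in blue for genes higher in males, from 6 libraries of each sex. The bars are close to level at any fold (3647 and 3791) and male-biased genes outnumber female-biased ones from 4-fold (971 and 1383) to 256-fold (25 and 66).

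Every strongly female-biased gene, and nearly every strongly male-biased one, separated the libraries completely. For all 317 genes at 16-fold or more higher in females, each female library lay above each male library. For 770 of the 772 male-biased genes, each male library lay above each female library. Over all 10394 genes tested, 2584 had every female library above every male library and 2872 the reverse. The strongly biased genes were chosen in these same libraries for a large difference, so their separation follows largely from that choice.

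The median strongly male-biased gene drew more reads than the median strongly female-biased one. The files hold no gene lengths, so abundance here is CPM, the reads of a gene scaled to a library of fixed size, and sorts genes by reads, not by transcripts. The median level in the higher sex was 35.7 CPM for the 317 female-biased genes and 64.8 CPM for the 772 male-biased genes, against 65.1 CPM for all genes tested in whichever sex was higher. Summed CPM in the higher sex was 39264 over the 317 genes and 103110 over the 772. Means per gene therefore lay closer together than the medians. The median level in the other sex was 0.564 CPM in males for the female-biased genes and 0.837 CPM in females for the male-biased genes. Of the female-biased genes 237 (74.8%) reached 10 CPM in females, and of the male-biased genes 707 (91.6%) reached 10 CPM in males, against 84.5% of all genes tested.

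Below 10 CPM in the higher sex strongly female-biased genes were the more frequent, and above it strongly male-biased ones were. Among 104 genes under 1 CPM the shares at 16-fold or more were 6.73% female-biased and 2.88% male-biased. Among 1511 genes with 1 to 10 CPM in their higher sex, 4.83% were female-biased and 4.1% male-biased at 16-fold or more. Among 5016 genes with 10 to 100 CPM the shares were 3.23% and 8.45%. Among 3671 genes with 100 to 1000 CPM they were 1.96% and 7.49%. Above 1000 CPM there were 92 genes, of which 3 were female-biased and 8 male-biased.

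**Figure D2:**
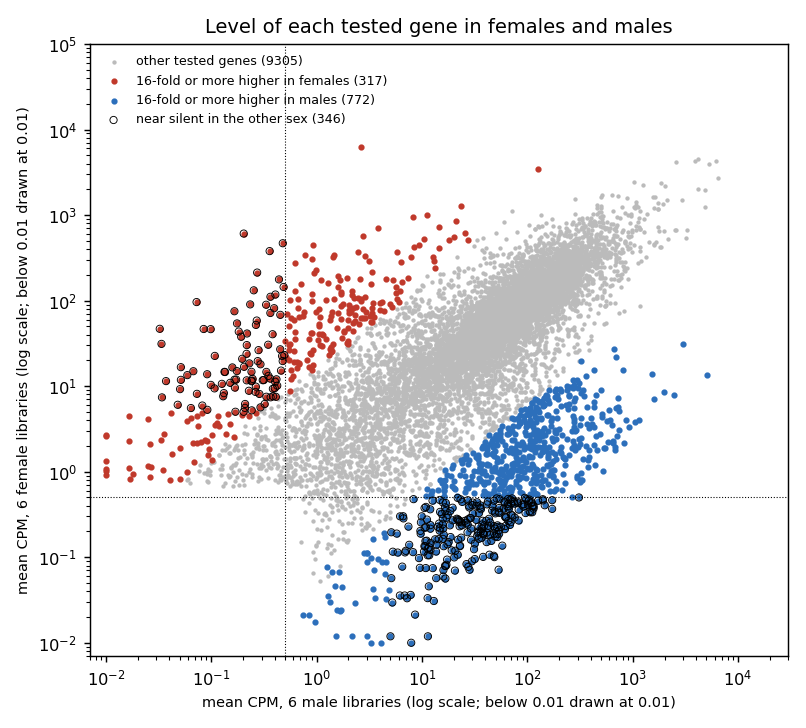
Mean level of each tested gene in the 6 female libraries (vertical axis, CPM, log scale) against the 6 male libraries (horizontal axis, CPM, log scale), with means below 0.01 drawn at 0.01. Red points are the 317 genes and blue points the 772 genes at 16-fold or more, circles mark the 98 and 248 that are near silent in the other sex, and dotted lines mark 0.5 CPM.

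In sum of reads, the male-biased genes weighed more in males than the female-biased genes did in females. The 317 female-biased genes took 4.12% ± 0.64 of counts in females, against 0.0682% ± 0.00293 in males (SD over 6 libraries). The 772 male-biased genes took 0.156% ± 0.0771 of counts in females, against 9.93% ± 1.71 in males (SD over 6 libraries). By library the female-biased share was 3.16% to 4.94% in females and 0.0643% to 0.072% in males. The male-biased share was 0.0792% to 0.305% in females and 7.04% to 11.7% in males. These shares carry no test, since the genes were chosen in the same libraries.

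Female-biased reads were concentrated in fewer genes than male-biased reads. The sets differ in size, at 317 and 772 genes, and the figures that follow are not adjusted for it. In females the most abundant gene of the 317 held 15.9% of their summed CPM and the first 10 held 41.8%, and 17 genes were enough to reach 50 percent. In males the most abundant gene of the 772 held 4.9% and the first 10 held 19%, and 80 genes were needed to reach 50 percent.

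For whole libraries, no difference between the sexes in 2 summaries passed the test. The 100 most abundant genes took 14.3% ± 3.18 of counts in females, against 16.3% ± 1.07 in males (SD over 6 libraries), which differ by -2.01 percentage points (exact permutation test within day, two-sided, p = 0.135, adjusted over 2 tests 0.205). Without female day 1 replicate 3 the difference was -3.28 points with p = 0.005, the smallest p the permutations allow. Genes at 1 CPM or more numbered 9630 ± 209 in females, against 9748 ± 98.7 in males (SD over 6 libraries, exact permutation p = 0.205, adjusted 0.205). That difference was -118.5 genes with all libraries, -46.4 without female day 1 replicate 3 (exact permutation p = 0.475) and -173.8 without female day 7 replicate 2 (exact permutation p = 0.04).

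**Figure D3:**
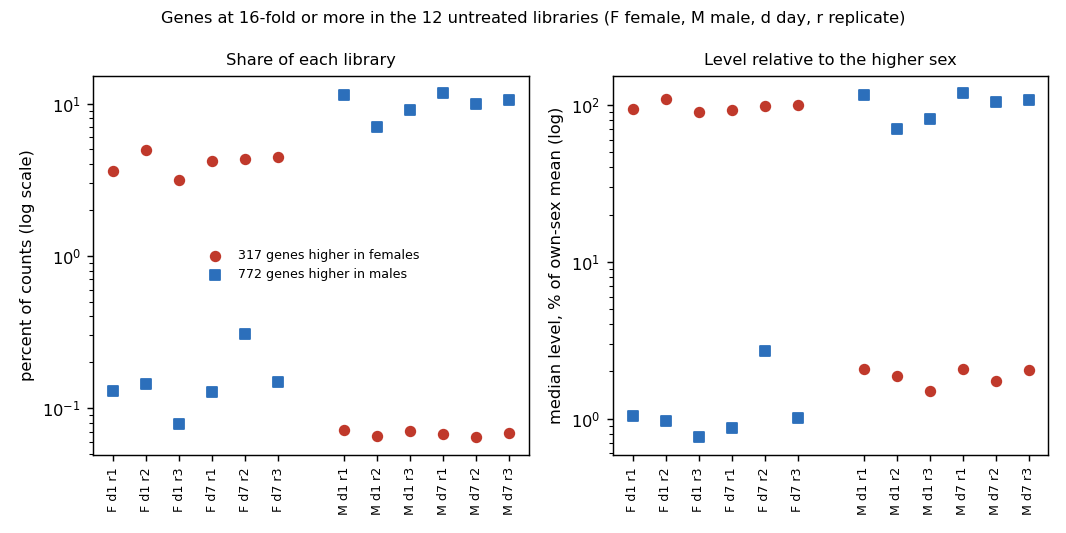
The 317 female-biased genes (red circles) and 772 male-biased genes (blue squares) at 16-fold or more in each of the 12 untreated libraries, females left and males right, as the percent of counts they take (left panel, log scale) and as their median level in percent of the mean of the higher sex (right panel, log scale). Female day 7 replicate 2 stands above the other 5 females in male-biased genes, at 0.305% of counts and a median of 2.71%.

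By rule 4 genes were named, the most abundant and the largest in fitted fold change in each direction among genes whose libraries do not overlap between the sexes. WBGene00234986 had 3116, 6797 and 8576 CPM in females and 1.20, 1.97 and 6.59 CPM in males (lowest, median and highest of 6). It was the most abundant of the strongly female-biased genes, at 11.33 on the log2 scale, females over males (SE 0.59, adjusted p by edgeR 1.22e-09). The 6 male libraries together held 188 counts of it. Male day 1 replicate 3 was the highest male, at 6.59 CPM against 1.20 to 2.71 in the other 5.

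WBGene00230752 had the largest fitted difference of any gene higher in females, at 11.74 on the log2 scale (SE 0.43, adjusted p by edgeR 7.58e-11). Its levels were 427.3, 617 and 791.3 CPM in females and 0, 0.119 and 0.599 CPM in males (lowest, median and highest of 6). The 6 male libraries together held 14 counts of it. It is therefore near silent in males, while no female library fell below 427.3 CPM.

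WBGene00220914 was the most abundant strongly male-biased gene. Its levels were 2.08, 3.33 and 66.9 CPM in females and 2917, 4980 and 7047 CPM in males (lowest, median and highest of 6). Its fitted log2 difference was -9.11 (SE 1.07, adjusted p by edgeR 4.23e-06). The 66.9 CPM belonged to female day 7 replicate 2, and the other 5 females lay between 2.08 and 3.45 CPM. Without that library the log2 fold change was -10.78 (edgeR adjusted p = 1.2e-10).

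WBGene00269290 had 0 counts in each of the 6 female libraries and 3.14, 9.60 and 9.85 CPM in males (lowest, median and highest of 6, 704 counts in all). It was at least 174.8-fold higher in males, taking a floor of 3 counts over the 66383209 counts of the 6 females, which is 0.0452 CPM. The edgeR adjusted p was 1.78e-06. Its place as the largest fitted male-biased difference (-9.69 on the log2 scale) rests on the 0 counts. By the fold of means over the floor, 159 called genes exceeded it, and WBGene00220914 stood at 373.3-fold. It was listed at 0 in the 5 untreated microfilaria libraries too. Such floors and limits cover counting error only.

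**Figure D4:**
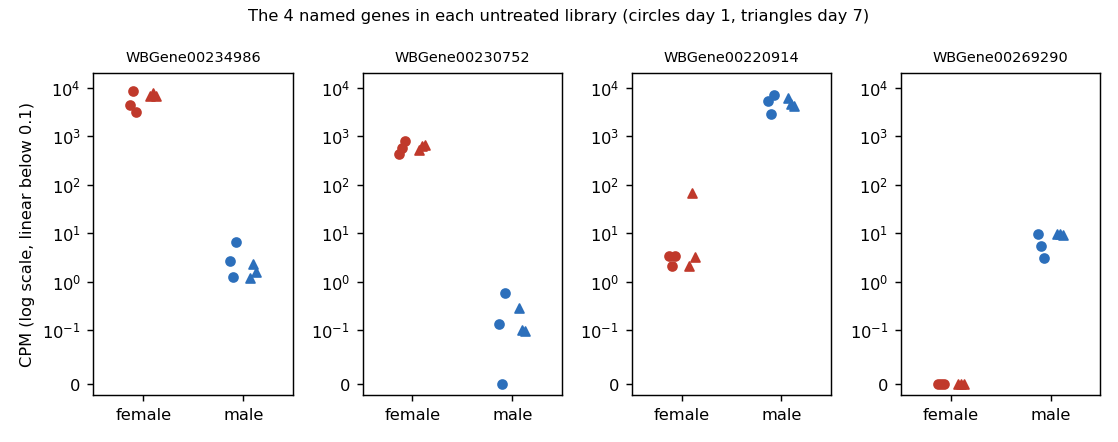
CPM of the 4 named genes in each untreated library (vertical axis, log scale, linear below 0.1), with females in red left of males in blue, circles for day 1 and triangles for day 7. The sexes do not overlap for any of the 4, which was a condition for naming them. For WBGene00220914, 1 day 7 female stands at 66.9 CPM while the other 5 lie at 2.08 to 3.45.

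A gene was counted as near silent in a sex when it was at least 16-fold higher in the other sex, averaged at least 5 CPM there and averaged under 0.5 CPM in the sex in question. By this rule 98 genes (0.943% of genes tested) were near silent in males and 248 (2.39%) were near silent in females. As a share of strongly biased genes with 5 CPM or more the figures were 98 of 266 female-biased genes (36.8%) and 248 of 736 male-biased genes (33.7%). The size of the shares depended on the limit, and their order at 0.5 CPM depended on 1 library. Without female day 7 replicate 2 they were 99 of 267 female-biased genes (37.1%) and 325 of 749 male-biased genes (43.4%). Below 1 CPM in the other sex they were 55.3% and 51.9%, and below 0.1 CPM they were 7.14% and 4.62%. At the other extreme, 14 female-biased genes still had 10 CPM or more in males and 13 male-biased genes had 10 CPM or more in females.

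The near-silent genes were of modest abundance in the sex that expressed them, which the fixed limit of 0.5 CPM favours. WBGene00234986, with means of 6255 CPM in females and 2.615 CPM in males, fell outside the rule. The 98 genes near silent in males had a median of 14.6 CPM in females (5.02 to 607.7) and 0.232 CPM in males, and 9 of them reached 100 CPM in females. Their median log2 fold change was 6.17. The 248 genes near silent in females had a median of 0.237 CPM in females and 28.4 CPM in males (5.02 to 308.5), and 19 reached 100 CPM in males. Their median log2 fold change was -7.11. For neither set did any gene average 1000 CPM. The 98 genes took 0.451% of female counts and 0.00228% of male counts, and the 248 genes took 0.00682% of female counts and 0.95% of male counts (means of 6 libraries). Without female day 7 replicate 2 the 248 genes took 0.00403% of female counts (0.00249% to 0.00445%).

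Few of the genes tested had no read at all in 1 sex. Of these, 6 had 0 counts in all 6 males and 3 had 0 counts in all 6 females. All 9 were strongly biased, but the 6 averaged 0.911 to 2.71 CPM in females and so fell under the 5 CPM limit. The 3 averaged 3.26 to 7.90 CPM in males, and 1 of them, WBGene00269290, met the limit. Before the filter on low counts the numbers were larger, with 146 listed genes that had counts in females at 0 in all 6 males, and 62 that had counts in males at 0 in all 6 females. A count of 0 allows up to 0.0338 CPM over the 6 males and 0.0452 CPM over the 6 females.

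Low-level reads of the other sex's genes were present in every library. In males, the median female-biased gene stood at 1.49% to 2.07% of its female mean across the 6 libraries. In females, the median male-biased gene stood at 0.759% to 1.04% of its male mean in 5 libraries and at 2.71% in day 7 replicate 2. Of genes with 10 CPM or more, the most abundant had the lower residual. In males it was 1.1% to 1.38% for the 75 female-biased genes of 100 CPM or more and 1.9% to 2.47% for the 162 genes of 10 to 100 CPM. In females other than day 7 replicate 2 it was 0.688% to 0.85% for the 283 male-biased genes of 100 CPM or more and 0.823% to 1.19% for the 424 genes of 10 to 100 CPM.

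Female day 7 replicate 2 raised the male-biased genes broadly. Of the 772 genes, 584 (75.6%) were higher in it than in each of the other 5 females, against 13.6% of all genes tested. The median excess over the mean of the other 5 was 1.47% of the male level, with the middle 50 percent of genes between 1% and 2.11%. In it the residual was 2.38% for male-biased genes of 100 CPM or more, 2.9% for those of 10 to 100 CPM and 3.14% for those under 10 CPM. The source of these reads was not tested.

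Near silence in females rested partly on that library. Of the 248 genes, 147 had 0.5 CPM or more in it, against 9 to 15 in the other 5 females. When the library was left out, 325 genes were near silent in females. With the stricter demand that every library of the other sex lie under 0.5 CPM, 59 of 266 female-biased genes (22.2%) and 87 of 736 male-biased genes (11.8%) qualified. The male-biased figure was 226 when the demand was made of the other 5 females alone.

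Males varied together in their strongest genes as well. In male day 1 replicate 2 the median male-biased gene stood at 70.3% of the male mean, and in day 1 replicate 3 at 81%, against 104.6% to 119.1% in the other 4 males. In male day 1 replicate 2, 413 of the 772 genes (53.5%) were below all 5 other males, against 19.5% of all genes tested. The median female-biased gene ranged from 89.6% to 109.8% of its mean across females. The median SD of log2 CPM was 0.408 for the 317 genes in females and 0.365 for the 772 genes in males, against 0.352 and 0.224 for all genes tested in females and in males.

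The sex difference was not found to change between the days. Tests of the interaction of sex and day called 0 of 10394 genes (0%) by edgeR's quasi-likelihood test and 0 by limma-voom. At an unadjusted p below 0.05 there were 227 genes by edgeR and 1549 by limma-voom. Chance alone would give about 520, so edgeR's number was below it and limma-voom's above it. DESeq2 called 2, WBGene00220294 (2.7 and 0.741 CPM in females at days 1 and 7, 1.79 and 3.13 CPM in males) and WBGene00232889 (900 and 593 CPM in females, 115 and 137 CPM in males). Their DESeq2 adjusted p was 0.0198 and 0.00452 and their edgeR adjusted p was 1 for both, and they are named after their values were seen.

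Each day on its own found much the same strongly biased genes. In fits of 3 females against 3 males, day 1 called 2363 genes higher in females (23.1% of 10233 tested) and 2541 higher in males (24.8%), and day 7 called 3678 (35.9% of 10255) and 3703 (36.1%). Without female replicate 3, day 1 called 2691 and 2990. At 16-fold or more day 1 gave 336 female-biased (3.28%) and 752 male-biased genes (7.35%), and day 7 gave 300 (2.93%) and 787 (7.67%). Of the female-biased genes 275 were on both lists, which is 81.8% of the day 1 list and 91.7% of the day 7 list. Of the male-biased genes 722 were on both, 96% of the day 1 list and 91.7% of the day 7 list. Of the genes tested on the other day as well, every one was called there in the same direction (332 and 752 of the day 1 lists, 287 and 776 of the day 7 lists).

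The strongly biased genes were also read in drug-treated worms, whose libraries took no part in choosing them. Separate fits of 6 females against 6 males were made for each drug. All 772 male-biased genes were called higher in males with each of the 3 drugs, where 39.7% (albendazole), 36.2% (diethylcarbamazine) and 35.8% (ivermectin) of genes tested were called in that direction. Of the 317 female-biased genes, the 317, 315 and 315 that were tested were called higher in females, where 36.6%, 36.1% and 34.7% of genes tested were. At 16-fold or more 761, 760 and 754 of the male-biased genes were called, where 7.71%, 7.8% and 7.63% of genes tested were. Of the female-biased genes 245, 192 and 242 were called at 16-fold or more, where 2.45%, 1.91% and 2.46% of genes tested were.

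The lower female figures moved with 4 male libraries. On a scale set over all 48 adult libraries, 94, 95, 91 and 49 of the 98 genes near silent in untreated males had 0.5 CPM or more in albendazole day 1 replicate 1, diethylcarbamazine day 1 replicate 1, diethylcarbamazine day 7 replicate 1 and ivermectin day 1 replicate 2. The other 14 drug-treated males had 7 to 34. Without these libraries 283, 290 and 285 female-biased genes were called at 16-fold or more with albendazole, diethylcarbamazine and ivermectin, where 2.93%, 3.18% and 2.91% of genes tested were. What set these males apart was not tested. The number of the 98 genes averaging under 0.5 CPM in males was then 74, 90 and 78, against 38, 30 and 55 with them. These males were set aside for their levels of the same genes, so both rises follow at least in part from that choice. Genes near silent in untreated females were under 0.5 CPM on average in drug-treated females for 241, 233 and 241 of 248. Female diethylcarbamazine day 1 replicate 1 stood apart, with 108 of the 248 genes at 0.5 CPM or more against 5 to 26 in the other 17 drug-treated females. Its median male-biased gene stood at 2.18% of the untreated male mean, against 0.691% to 1.11% in the others. Without it the diethylcarbamazine figure was 241 of 248, a rise that again follows at least in part from the choice.

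WBGene00230752, 1 of the 98 genes, moved with those males for albendazole and diethylcarbamazine but hardly for ivermectin. Its log2 fold change was 6.91 with albendazole, 5.36 with diethylcarbamazine and 9.46 with ivermectin, and 10.38, 11.13 and 9.49 without the 4 libraries (edgeR adjusted p at most 0.00398 in these fits). For WBGene00220914 the values with all libraries were -11.10, -9.44 and -10.89.

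Microfilariae, whose libraries were not used to choose the genes, had the median gene of both sets at a low level. RNA of a gravid female includes RNA of her offspring, so a choice of genes by their female level is not fully independent of microfilariae. How much this weighed on the levels below was not tested. With females, males and 5 untreated microfilaria libraries on 1 scale, the 317 female-biased genes had a median of 35.7 CPM in females, 0.549 CPM in males and 1.64 CPM in microfilariae. The 772 male-biased genes had medians of 0.836 CPM in females, 62.7 CPM in males and 0.456 CPM in microfilariae. Genes not called between the sexes stood at 60.2, 57.7 and 58.3 CPM in females, males and microfilariae. In microfilariae, 403 male-biased genes (52.2%) and 92 female-biased genes (29%) averaged under 0.5 CPM, against 8.43% of all genes tested. Of the 248 genes near silent in females, 205 (82.7%) averaged under 0.5 CPM in microfilariae too, and of the 98 near silent in males 34 (34.7%) did.

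Some female-biased genes were as high or higher in the offspring. In microfilariae 32 of the 317 (10.1%) reached or passed their female level, against 3 of the 772 male-biased genes (0.389%) reaching their male level and 33.2% of all genes tested reaching the level of their higher sex. Among female-biased genes the share was larger where the sexes differed less, at 163 of 654 (24.9%) at 4 to 16-fold and 1161 of 2676 (43.4%) under 4-fold. Male-biased genes rose in the same way, to 34 of 611 (5.56%) at 4 to 16-fold and 604 of 2408 (25.1%) under 4-fold.

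A single gene carried most of the female-biased reads in microfilariae. The 317 genes took 1.41% ± 0.199 of microfilaria counts (SD, n = 5), and 0.448% without WBGene00229641. That gene, named after its values were seen, is among the 98 near silent in males. It had 2.42, 6.11 and 56.0 CPM in females, 0.218, 0.461 and 0.680 CPM in males and 6977, 9960 and 13580 CPM in microfilariae (lowest, median and highest). Between the sexes its log2 difference was 5.36 (SE 0.93, adjusted p by edgeR 0.000161). Female day 1 replicate 3 and day 7 replicate 3 stood at 56.0 and 43.9 CPM and the other 4 females at 2.42 to 6.13.

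**Figure D5:**
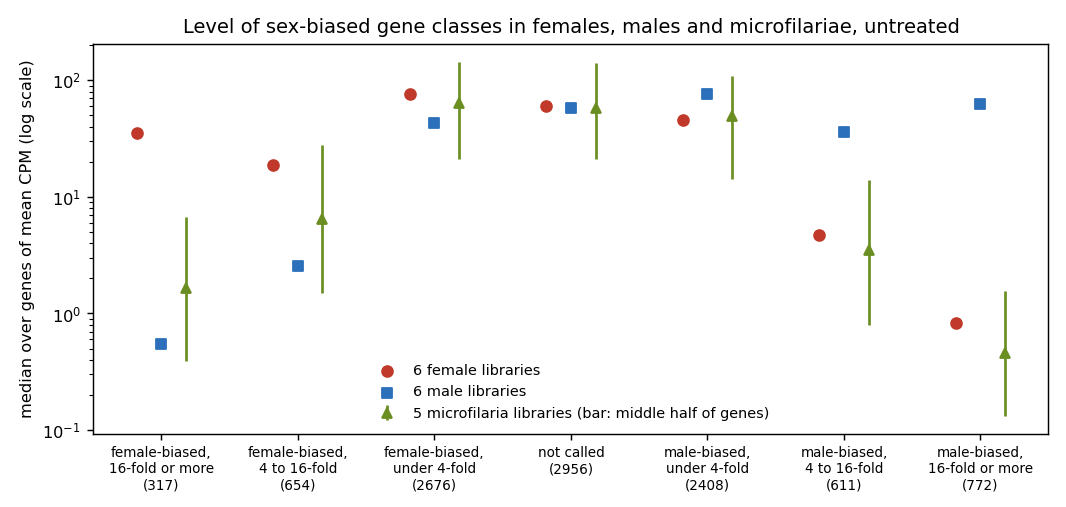
Median over genes of the mean CPM (vertical axis, log scale) in 6 female (red circles), 6 male (blue squares) and 5 microfilaria (green triangles) untreated libraries, for classes of genes by their difference between the sexes, with the number of genes in brackets. Green bars span the middle 50 percent of genes in microfilariae, whose median is 1.64 CPM for the strongly female-biased class, 58.3 CPM for genes not called and 0.456 CPM for the strongly male-biased class.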

How the data were processed

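The authors deposited raw read counts per gene, with no normalisation, in 1 table of 68 columns. TopHat2 2.0.14 and HTSeq 0.6.1p1 are named in the submitters' processing notes, without their roles. Libraries were strand-specific, per the labels' protocols. Genome build, annotation and counting options are not given in the sources used here, so reads may be split between similar gene copies. Columns were joined to samples by the name in the labels.

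Counts of 12 libraries were scaled by TMM and filtered with filterByExpr (minimum count 10, total 15), leaving 10394 genes. Sex, females over males, was tested two-sided with day as a term by edgeR's quasi-likelihood test, at 0.05 after Benjamini-Hochberg adjustment. Each SE was worked back from that test, as the absolute log2 fold change over the square root of its F statistic. It is thus approximate where 1 sex has few counts. R 4.3.3, edgeR 4.0.16, limma 3.58.1, DESeq2 1.42.0, Python 3.11.15 and matplotlib 3.10.9 were used. The biological coefficient of variation was 0.243 over the 12 libraries, 0.303 in females and 0.173 in males. The steps were run on simulated data with far fewer changed genes than here, spread evenly over both directions. Scaling under a broad and uneven sex difference was therefore not tested there. CPM values are TMM-scaled with no prior count, and a prior count of 2 entered the log2 CPM behind components and SDs.

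Named genes were, per direction, the most abundant and the largest in fold change among genes at 16-fold or more whose sexes do not overlap. The comparison, rules and lists were chosen with earlier results of these data known. The series describes the sexes as separated from the worms of each replicate, so libraries of 1 day and number may be pairs. The fit and the permutation tests did not pair them, and the replicate block, an alternative, did. Their deviations correlated at 0.266, 0.199 and 0.322 on day 1 and 0.133, -0.038 and 0.142 on day 7. Whether replicates are separate hosts is not stated beyond the word biological, and p-values measure the spread between these samples. No pair of replicates agreed within sampling noise (chi-square per degree of freedom 8.10 or more). Alternatives were other scalings, filters and tools, a replicate block, no day term, microfilariae in the fit, other limits and leaving out each library. Those chosen after seeing the data were dropping the 2 female and 4 male libraries named in the text, the floor on folds of means, each day without 1 female, and the diethylcarbamazine fit without 1 female.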

Additional observations from a re-analysis of the deposited data

Results flagged for a closer look

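In 33 sets of 6 values (a measure or named gene in the females or the males), 9 held a library set far apart by the size of its gap to the next value. Chance alone sets a library apart in about 1 in 20 such sets, and several of these measures overlap in the genes they count. None of the following has had its cause tested.

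Female day 7 replicate 2 stood apart in 5 of these sets, for a male-biased share of counts of 0.305% against 0.0792% to 0.149% in the other females, and for a median male-biased level of 2.71% of the male mean against 0.759% to 1.04%. It had 147 genes of the 248 near silent in females at 0.5 CPM or more, against 9 to 15, with a summed 183.2 CPM against 34.5 to 41.8, and 66.9 CPM of WBGene00220914 against 2.08 to 3.45.

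Female day 1 replicate 3 stood apart in 3 sets. Its TMM factor was 0.721 against 1.05 to 1.16, 20.7% of its counts fell on its 100 most abundant genes against 12.5% to 14.2%, and 584 genes made up 50 percent of its counts against 1127 to 1299.

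Male day 1 replicate 3 stood apart for WBGene00234986, at 6.59 CPM against 1.20 to 2.71 in the other males.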

How the results depend on the processing

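Of 337 values recomputed under another setting, 326 kept their direction and their side of the threshold or stayed within 1.5 times the main count, 6 counts moved by more, 4 differences passed the threshold newly and 1 turned. For near silence, the counts in males and females were 19 and 34 below 0.1 CPM, 382 in females below 1 CPM, and 59 and 87 when every library had to lie below 0.5 CPM. DESeq2 called 2 genes for the interaction of sex and day. The difference in genes detected, females minus males, was 57.3 at 0.1 CPM (exact permutation p = 0.48), -314.5 at 5 CPM (p = 0.01) and -173.8 without female day 7 replicate 2 (p = 0.04). The share of the 10 most abundant genes differed by -0.535 percentage points (exact permutation p = 0.015), and that of the 100 most abundant by -3.28 without female day 1 replicate 3 (p = 0.005). The causes were not tested.

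Leaving out each library in turn gave 3482 to 3932 genes higher in females and 3564 to 3972 higher in males, 319 to 339 and 761 to 795 at 16-fold or more, and 98 to 104 near silent in males and 227 to 325 in females. The difference in genes detected ran from -173.8 to -46.4, and that in the share of the 100 most abundant genes from -3.28 to -1.65. Without both female libraries that stood apart, 318 genes were near silent in females. With the replicate block 3706 and 3933 genes were called, 311 and 780 at 16-fold or more, and the block changed no call of a named gene, though WBGene00220914 stood at -10.11 on the log2 scale. Depth limits near silence: 0.5 CPM is 3.61 to 8.83 reads in a female library and 3.34 to 11.1 in a male library.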
